A study of Homo sapiens with 2 samples.

Results

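The genes described here are 10 genes that make, bind, sense and break down retinoic acid: the retinal dehydrogenases ALDH1A1, ALDH1A2 and ALDH1A3, the binding proteins CRABP1 and CRABP2, the receptors RARA, RARB and RARG, and the degrading enzymes CYP26A1 and CYP26B1. They were matched by annotated gene symbol in a table of 2 two-colour Agilent arrays, where 15 of 45015 features belonged to them. The set was picked partly because CYP26B1 fell strongly with both siRNAs, so the values of CYP26B1 are given as a description with no test. Of the 10 genes, 8 had a ratio on both arrays. ALDH1A3 had 3 features, each listed at exactly 0 on both arrays, and no feature used here was annotated to CRABP1. A value of exactly 0 was taken to mean that no ratio was obtained, and 5 of the 15 features were of this kind.

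Each array compared RNA of COLO320 cells that had received 100 nM of 1 of 2 siRNAs against CDX2 (siRNA 6 or siRNA 8) with RNA of COLO320 cells that had received a non-targeting control siRNA, taken at the same time. COLO320 is an established human colorectal cancer line with neuroendocrine features, and CDX2 is a homeobox factor of intestinal identity. Cells were collected 24 h after the medium was changed on the morning after transfection, and the labels name no retinoid among the treatments of either group. RNA of the CDX2 siRNA cells carried Cy5 and control RNA carried Cy3 on both arrays, so a dye effect and a siRNA effect cannot be told apart. The 2 siRNAs served as replicates (n = 2), the control RNA's own spread was not measured, and whether the transfections were made independently is not given.

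Retinol from the blood is oxidised first to retinal and then, by the ALDH1A enzymes, to retinoic acid. CRABP proteins carry retinoic acid inside the cell, and the RAR receptors bind DNA as partners of RXR receptors, holding corepressors without ligand and coactivators with it. CYP26 enzymes hydroxylate retinoic acid and so end the signal, and in many cell types CYP26A1 and RARB are themselves induced by it. In the gut, retinoic acid takes part in patterning the embryonic endoderm and in differentiation of the epithelium.

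The upstream sequences of CYP26B1, CYP26A1 and RARB are shown because CYP26B1 had the lowest ratio of the set, while CYP26A1 and RARB have the textbook form of retinoic acid response element near a start site. They were taken from RefSeq (GRCh38.p14) and run 5′ to 3′ along the gene's own strand, from 250 bases before the annotated start to 50 after it. Capitals mark a direct repeat of 2 hexamers with 5 bases between them, each hexamer being AGGTCA, the variant AGTTCA, the variant GGGTCA or the variant GGTTCA, searched on both strands. CYP26B1 lies at chr2:72147813-72148112 on the minus strand, CYP26A1 at chr10:93073643-93073942 on the plus strand, and RARB at chr3:25428013-25428312 on the plus strand.
CYP26B1: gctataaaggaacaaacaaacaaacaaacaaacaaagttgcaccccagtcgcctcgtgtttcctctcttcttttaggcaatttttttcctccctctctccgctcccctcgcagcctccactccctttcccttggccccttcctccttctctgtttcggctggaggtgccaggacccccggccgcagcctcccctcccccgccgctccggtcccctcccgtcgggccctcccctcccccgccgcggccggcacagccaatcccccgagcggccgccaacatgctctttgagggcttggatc
CYP26A1: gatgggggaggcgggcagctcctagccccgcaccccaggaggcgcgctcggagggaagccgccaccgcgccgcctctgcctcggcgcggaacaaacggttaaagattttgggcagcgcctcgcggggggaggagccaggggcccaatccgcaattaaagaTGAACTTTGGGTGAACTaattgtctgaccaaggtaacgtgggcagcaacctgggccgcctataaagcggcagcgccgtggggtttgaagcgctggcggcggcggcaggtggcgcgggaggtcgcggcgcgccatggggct
RARB: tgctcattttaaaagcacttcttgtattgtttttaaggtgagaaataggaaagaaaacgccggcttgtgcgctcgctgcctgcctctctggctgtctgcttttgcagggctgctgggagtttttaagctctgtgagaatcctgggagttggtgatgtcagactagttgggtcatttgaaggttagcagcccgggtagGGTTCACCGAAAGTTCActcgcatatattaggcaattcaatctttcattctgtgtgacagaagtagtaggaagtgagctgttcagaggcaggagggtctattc
The CYP26A1 window held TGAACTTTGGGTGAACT at bases 161 to 177, which is the repeat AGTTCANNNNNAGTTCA read on the other strand. The RARB window held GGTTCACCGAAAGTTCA at bases 198 to 214, as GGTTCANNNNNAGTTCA. Such a repeat stood in 31 of 34943 RefSeq windows of this length (0.0887%), and 2 of the 17 windows of the 10 genes were among them. The hexamers searched for include those of the textbook CYP26A1 and RARB elements, so nothing is read from that count. The single hexamer AGTTCA, which overlaps both repeats, was in 10.5% of all windows and AGGTCA in 13.8%. Of the CDX2 core sequences, TTTATG was in 4 of the 17 windows (10.6% of all windows) and TTTATT in 4 (17.4% of all). The printed windows of CYP26B1, CYP26A1 and RARB held neither. Only the window with the repeat is printed for CYP26A1 and for RARB, which had 4 windows. An unprinted window of CYP26A1 held TTTATG. Unprinted windows of RARB held TTTATT, and TTTATG was also found among them. TTTATT occurred at 2 places upstream of ALDH1A1 and likewise at 2 places in each RARB window that held it. A match describes the letters of a window and does not show a bound site.

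Across all features, 12842 genes had a ratio and were tested with limma against a ratio of 1, with a Benjamini-Hochberg adjusted p of 0.05 over all of them as the threshold. In all 40.7% of genes passed, 12.1% higher and 28.6% lower with CDX2 siRNA, and the median gene stood at log2 -0.13. With each array centred on its median the split was 2113 higher and 2915 lower, against 1556 and 3669 as deposited. CDX2, the targeted gene, was at 37.0% of control on the siRNA 6 array and 37.7% on the siRNA 8 array. The table holds ratios and no signal levels, so the labelled cell type could not be checked by marker levels. Ratios were present for 6 of 10 colon epithelial, 4 of 10 neuroendocrine, 6 of 10 fibroblast and 4 of 9 blood cell markers on the array. Of these, 2 colon epithelial markers passed higher and 2 lower, 1 neuroendocrine marker higher and 2 lower, 1 fibroblast marker higher and 1 lower, and 3 blood markers lower by limma, and their part in the results was not tested. In RNA of whole cultures, fewer cells that express a gene and less of its RNA per cell cannot be told apart.

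Of the 7 measured genes of the set other than CYP26B1, 4 passed lower and 2 passed higher, against 28.6% and 12.1% of all genes, and 1 did not pass. Because the set was chosen with this comparison in view, nothing is read from that count. With exact zeros kept as ratios of 0 across the table, limma called 0 of the 7 genes and 0 of 18334 genes in all, while 4 of the 7 and 5218 of all had an unadjusted p under 0.05.

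**Figure D1:**
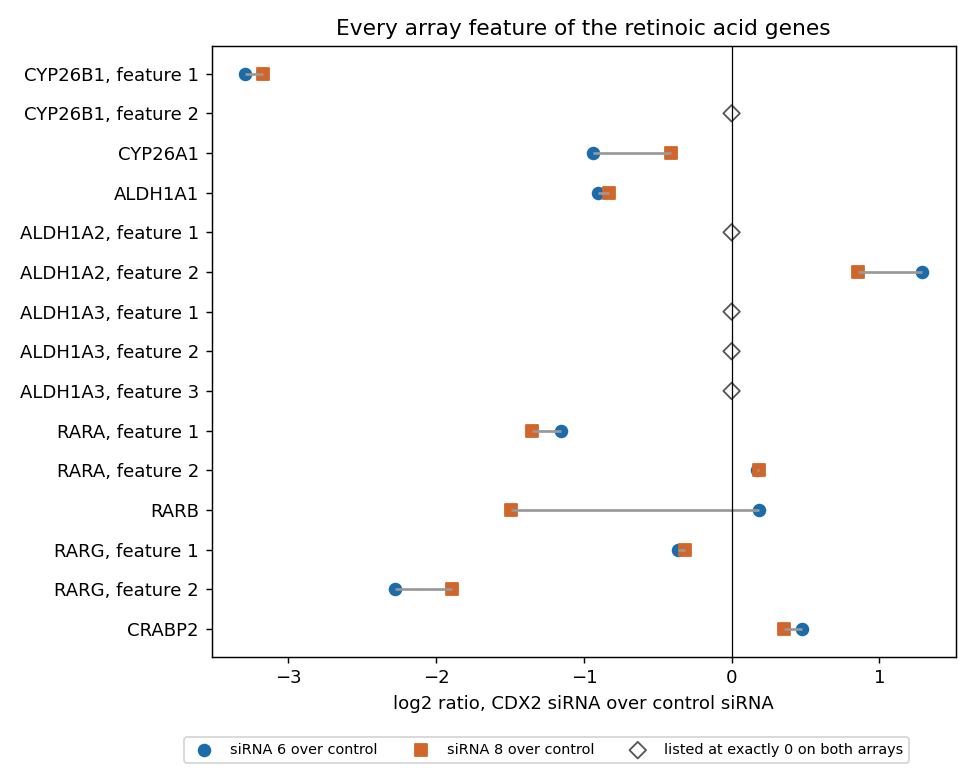
Log2 ratio of CDX2 siRNA over control (horizontal axis) for each of the 15 features of the retinoic acid genes; circles are siRNA 6, squares siRNA 8, and open diamonds features listed at exactly 0 on both arrays. CYP26B1 lies farthest to the left, at -3.29 and -3.17, the pairs of features of RARA and of RARG lie apart, and the 2 siRNAs lie on opposite sides of 0 for RARB.

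CYP26B1, which clears retinoic acid in many tissues, was at 10.2% of control on the siRNA 6 array and 11.1% on the siRNA 8 array. Both arrays were low by nearly the same amount, with a mean log2 ratio of -3.23 ± 0.0865 (SD, n = 2) at percentile 0.0779 of the genes tested. The value rested on 1 of 2 features of the same accession, and the other was listed at exactly 0 on both arrays. Counting that 0 as a measurement gave a gene mean of -1.62. All ratios here take the deposited values to be in base 10, which no source used here states; read as log2 values, CYP26B1 would have a mean of -0.97 and ALDH1A2 of 0.32, with the same limma calls across the table.

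CYP26A1, the other degrading enzyme of the set, was at 52.1% of control on the siRNA 6 array and 75.4% on the siRNA 8 array. It was low on both arrays but less so with siRNA 8, and neither array came near the ratio of CYP26B1. The mean log2 ratio was -0.67 ± 0.377 (SD, n = 2; 95% interval -1.13 to -0.22), and the gene fell with a limma adjusted p of 0.0392. That call held in 3 of 7 gene-level alternatives, among them the log2 reading, which could not change a limma p-value. The call ended with each array centred on its median (limma adjusted p = 0.0675), with the median feature (0.0541) and against a fold of 1.2 (0.105). It also ended with exact zeros kept (limma adjusted p = 0.328) and with every feature adjusted on its own (0.0511). CYP26A1 had a single feature, so the feature rule and the kept zeros left its ratio unchanged. Under those settings its p-value moved only with the values of other genes.

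The enzymes that make retinoic acid moved in opposite directions. ALDH1A1, also used as a marker of stem-like cells in colon cancer, was at 53.4% of control on the siRNA 6 array and 56.3% on the siRNA 8 array, low and close together on both arrays. Its mean log2 ratio was -0.87 ± 0.0543 (SD, n = 2; limma adjusted p = 0.00448). ALDH1A2, the main retinoic acid source of the early embryo, was at 244% of control on the siRNA 6 array and 181% on the siRNA 8 array. Both arrays were high, and the gene rose with a mean log2 ratio of 1.07 ± 0.305 (SD, n = 2; limma adjusted p = 0.00829). A further feature of ALDH1A2, of the same accession, was listed at 0 on both arrays, and counting it brought the mean to 0.54. ALDH1A3, the third enzyme of this group, gave no ratio.

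CRABP2, which delivers retinoic acid to the receptors in the nucleus, was at 139% of control on the siRNA 6 array and 128% on the siRNA 8 array. The rise was small but of like size on both arrays, with a mean log2 ratio of 0.42 ± 0.0847 (SD, n = 2; limma adjusted p = 0.0315). It no longer passed when tested against a fold of 1.2 in place of no change (limma adjusted p = 0.228; 0.0183 to 0.228 over its alternatives).

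The 3 receptors differed in how well their measurements held together. RARG, the receptor best known from skin and other epithelia, averaged 40.0% of control with siRNA 6 and 46.6% with siRNA 8 over 2 features of 1 accession. It fell with a mean log2 ratio of -1.21 ± 0.155 (SD, n = 2; limma adjusted p = 0.00303). The features pointed the same way but differed in size. The lower stood at 20.6% and 27.0% of control with siRNA 6 and siRNA 8 (limma adjusted p over all features = 0.00255). The other stood at 77.8% and 80.4% and did not pass on its own (0.0569). RARA, the receptor fused to PML in promyelocytic leukaemia, averaged 71.1% of control with siRNA 6 and 66.7% with siRNA 8, and its gene value fell (log2 -0.54 ± 0.0653, SD, n = 2; limma adjusted p = 0.0154). Here the features of 1 accession disagreed in direction on both arrays. The lower feature stood at 44.8% and 39.2% of control (limma adjusted p over all features = 0.00364), and the other at 113% and 114% (0.192). Against a fold of 1.2 the gene value of RARA no longer passed (limma adjusted p = 0.0656; 0.0043 to 0.122 over its alternatives).

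The gap between features was 1.43 on the log2 scale for RARA and 1.75 for RARG. Among 3087 accessions measured by exactly 2 features the median gap was 0.33, and the gaps of RARA and RARG lay at percentiles 86.5 and 91.5. A gap of 1 or more was present in 23.0% of these accessions. The tables used here give no probe names, so whether the features are copies of 1 probe or different probes of the transcript is unknown.

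RARB, a receptor that retinoic acid itself induces in many cells, was at 114% of control on the siRNA 6 array and 35.6% on the siRNA 8 array. It was the only measured gene of the 8 whose arrays lay on opposite sides of no change, on a single feature. The mean log2 ratio of -0.65 ± 1.19 (SD, n = 2) had a 95% interval from -1.87 to 0.57 and did not pass (limma adjusted p = 0.301). The difference of siRNA 8 minus siRNA 6 was -1.68 on the log2 scale, and in absolute size it lay at percentile 99.6 of all genes, whose median was 0.15.

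CYP26A1 had the next widest difference between the siRNAs in the set, 0.53 at percentile 91.9, followed by ALDH1A2 at 0.43 and percentile 87.6. For the other 5 measured genes the arrays differed by 0.08 to 0.22 on the log2 scale. In order of mean log2 ratio, CYP26B1 was lowest, then RARG, ALDH1A1, CYP26A1, RARB, RARA, CRABP2 and ALDH1A2. The array values of CYP26B1 lay apart from those of RARG, those of RARG from those of ALDH1A1, and those of CRABP2 from those of ALDH1A2. The values of RARB, 0.19 with siRNA 6 and -1.49 with siRNA 8, lay on both sides of those of RARG, ALDH1A1, CYP26A1 and RARA. Those of CYP26A1 lay on both sides of those of ALDH1A1 and RARA. The places of RARB and CYP26A1 in the order from RARG to RARA are therefore not resolved. The order uses gene averages, and by feature the places of RARG and RARA are not resolved either. The higher RARG feature stood at -0.36 with siRNA 6 and -0.31 with siRNA 8, above ALDH1A1. The features of RARA stood on both sides of ALDH1A1 and CYP26A1.

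**Figure D2:**
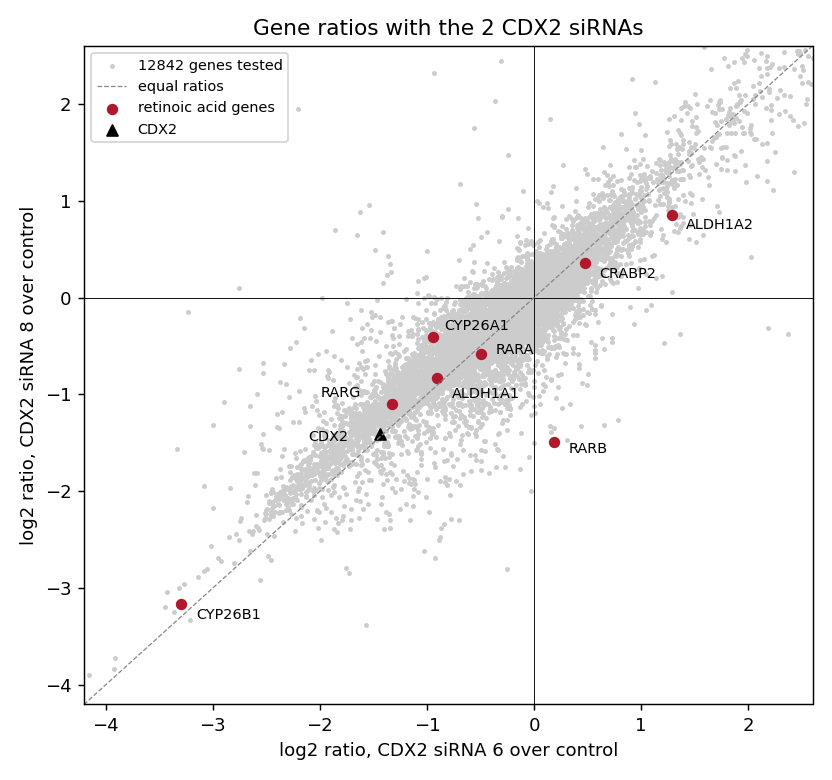
Log2 ratio of siRNA 6 over control (horizontal axis) against siRNA 8 over control (vertical axis), with grey points for the genes tested, red points for the 8 measured retinoic acid genes and a triangle for CDX2; genes beyond the axis limits are not drawn. RARB sits at 0.19 and -1.49, away from the diagonal of equal ratios, and CYP26B1 sits at the low end of it.

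The other genes of the pathway were grouped into 5 lists by their textbook roles, and their counts are read beside the 12.1% of all genes that passed higher and the 28.6% that passed lower. The lists held 76 genes with a ratio. Some of their largest ratios rested on 1 feature, with a further feature of the gene at exactly 0, as named below. Ratios as large also stood in genes outside the lists, such as log2 7.60 for ABCB11 and 6.51 for ADORA3, each on 1 feature. Without signal levels, whether the control signal of such features lay near background could not be checked.

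Proteins of retinoid uptake, storage and transport moved both ways: of 9 measured, 3 rose, 1 fell and 5 did not pass (limma), with a median log2 ratio of -0.04. BCO2, a carotenoid-cleaving enzyme, stood at log2 3.74 with siRNA 6 and 4.64 with siRNA 8, an 18.3-fold rise (limma adjusted p = 0.00155) from 1 feature while another was at 0. CES1, an esterase, rose 2.82-fold. The cellular retinol-binding proteins parted, with RBP5 2.48-fold higher and RBP7 3.07-fold lower. A further 8 list members on the array had no ratio.

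Among enzymes that interconvert retinol and retinal or act on retinoids, 6 of 19 rose, 4 fell and 9 did not pass (limma), with a median log2 ratio of 0.12. With each array centred on its median 7 rose and 2 fell, and with quantile normalization 6 rose and 2 fell (limma). ADH7, an alcohol dehydrogenase active on retinol, stood at log2 6.87 with siRNA 6 and 6.68 with siRNA 8 (109-fold; limma adjusted p = 0.000128), on its single feature. ALDH8A1, which oxidises 9-cis-retinal, stood at 6.38 and 6.76 (mean log2 ratio 6.57; limma adjusted p = 0.000207). RDH16 was 9.77-fold higher and ADH1A 9.63-fold higher. ALDH8A1 and ADH1A each had a further feature at exactly 0. These are dehydrogenases best known from liver and stomach, and 4 such enzymes account for the highest ratios of the list. They were picked by size, and the 4 genes that fell moved less. The lowest of those, AOX1, stood at log2 -1.44 with siRNA 6 and -1.39 with siRNA 8.

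Of the RXR receptors and others that bind retinoids or sites like those of RAR, 5 of 9 rose and 4 did not pass (limma), with a median log2 ratio of 0.50. RORA, a nuclear receptor of the clock, was 24.0-fold higher (log2 4.76 with siRNA 6 and 4.41 with siRNA 8; limma adjusted p = 0.000364) on 1 of 2 features, the other standing at -0.09 and 0. NR2F1, a COUP transcription factor that can occupy RAR sites, was 1.68-fold higher, THRA 1.46-fold and PPARD 1.41-fold. A further feature of PPARD was listed at 0 on both arrays, and with the median feature THRA no longer passed and 4 of the 9 rose (limma). Against a fold of 1.2 only 1 of the 9, RORA, still passed (limma). The RAR partners RXRA and RXRB, named after their values were seen, did not pass: RXRA stood at log2 -0.38 and -0.13 and RXRB at -0.04 and 0.10 with siRNA 6 and siRNA 8 (limma adjusted p = 0.138 and 0.808).

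Of 18 corepressors and coactivators of the RAR receptors, 2 rose, 6 fell and 10 did not pass (limma), with a median log2 ratio of -0.16. With each array centred on its median 3 rose and 4 fell. ZBTB16, a repressor that is another fusion partner of RARA, was 3.61-fold lower (log2 -1.98 with siRNA 6 and -1.72 with siRNA 8; limma adjusted p = 0.00158). The acetyltransferase KAT2B was 2.94-fold lower on 1 of 2 features, the other standing at -0.06 with siRNA 6 and 0 with siRNA 8. The acetyltransferase EP300 was 2.52-fold lower, but its 11 features ran from -1.85 to 0.06 with siRNA 6 and from -2.34 to 0.12 with siRNA 8, and its limma call ended with the median feature. NRIP1, a corepressor that binds RAR with its ligand, was 1.71-fold higher. The count for the whole list was 5 with the median feature and 4 against a fold of 1.2, in place of 8.

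Genes that retinoic acid induces in other cells mostly stood lower: of 21 measured, 15 fell, 2 rose and 4 did not pass (limma), with a median log2 ratio of -0.76 against -0.13 for all genes. With each array centred on its median, 12 fell and 4 rose. Both arrays were below control for 16 of the 21, as they were for 56.6% of all genes. DUSP6, a phosphatase of ERK, was lowest, at log2 -3.09 with siRNA 6 and -2.82 with siRNA 8 (7.75-fold lower; limma adjusted p = 0.000788). HOXB4 was 3.19-fold lower and TGM2, tissue transglutaminase, 3.18-fold lower, TGM2 on 1 of 2 features with the other at 0. HOXB1 went the other way, at log2 6.01 with siRNA 6 and 4.60 with siRNA 8, on a single feature (39.6-fold higher; limma adjusted p = 0.00208). Many of these genes also answer to other regulators, HOX genes to CDX factors among them, and 13 further members on the array had no ratio. The list was drawn up with earlier results of these data known and is no independent support for a direction.

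**Figure D3:**
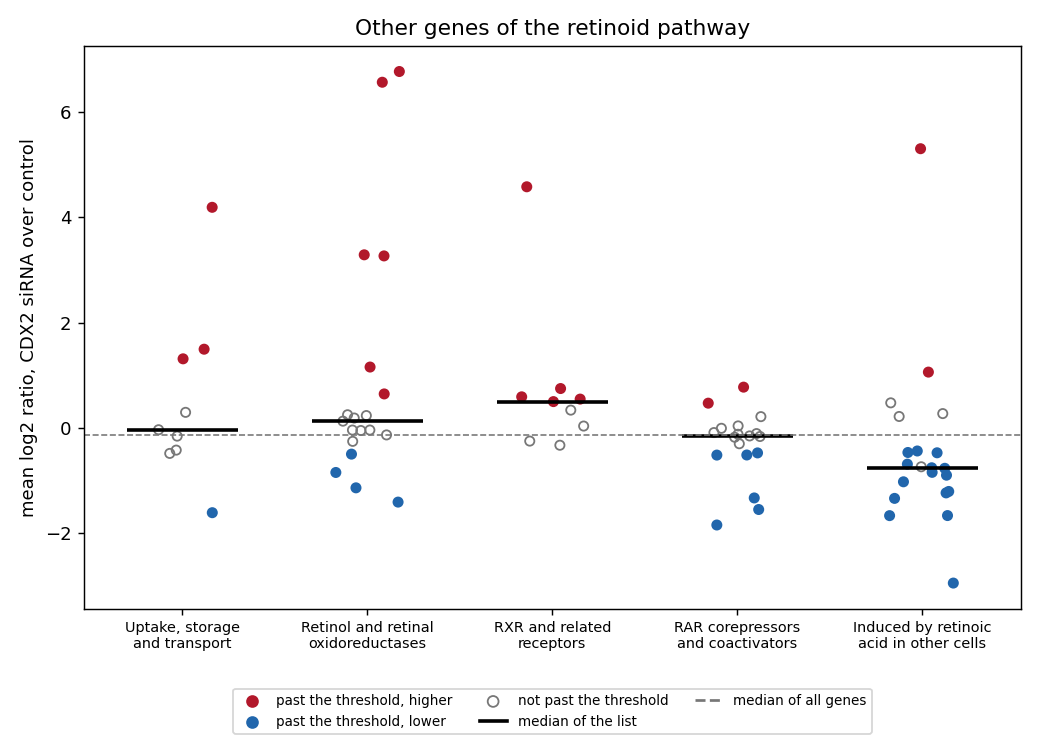
Mean log2 ratio of CDX2 siRNA over control (vertical axis) for each measured gene of 5 lists; filled points passed the limma threshold (red higher, blue lower), open points did not, black bars are list medians and the dashed line is the median of all genes, -0.13. The list of genes induced by retinoic acid in other cells has 15 blue points of 21, and the highest points are ADH7 and ALDH8A1.

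**Figure D4:**
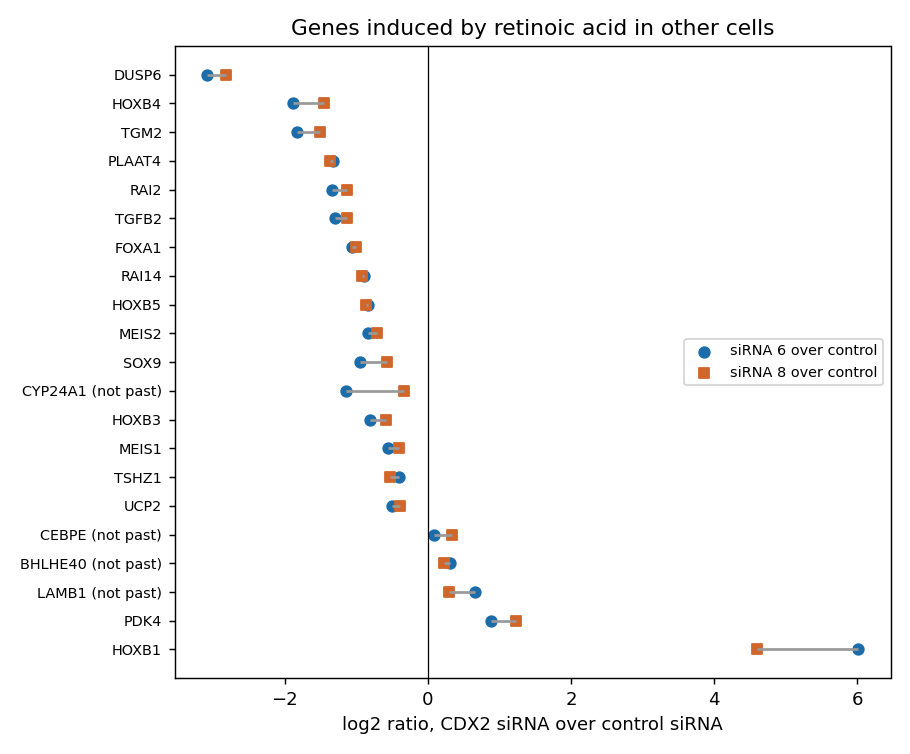
Log2 ratio of CDX2 siRNA over control (horizontal axis) for the 21 measured genes induced by retinoic acid in other cells; circles are siRNA 6, squares siRNA 8, and genes that did not pass are marked. For 16 of the 21 both arrays lie left of 0, and HOXB1 lies far to the right.

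The genes whose pair of ratios was nearest to that of CYP26B1, by Euclidean distance over the 2 arrays, were ATP6V0D2, FZD8, CRB1, CCDC15 and SPAG17, at distances of 0.10 to 0.19 on the log2 scale. ATP6V0D2, a proton pump subunit, stood at -3.36 with siRNA 6 and -3.25 with siRNA 8. FZD8, a Wnt receptor, stood at -3.45 with siRNA 6 and -3.20 with siRNA 8. With 2 arrays, likeness of this kind says only that the genes were low by about the same amount.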

How the data were processed

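The authors deposited log ratios, read here as log10, of Cy5 (CDX2 siRNA) over Cy3 (control siRNA), made with Agilent Feature Extraction 9.5.3 per the submitters' processing notes. No source used here writes the log base, which was taken from that tool's usual output, and the direction of the ratio follows the dyes in the labels. Background and dye correction are not given in the sources used here. Values were converted to log2 with no further normalization.

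Features with 1 annotated gene were kept (31332 of 45015), 31291 matched RefSeq gene identifiers, and 0 symbols changed. A feature was used if neither array was exactly 0, and features of a gene were averaged. The test was limma (version 3.58.1; R 4.3.3; the package data.table, version 1.17.8), an intercept-only fit to 2 arrays with 1 residual and 2.87 prior degrees of freedom. The p-values reflect the spread between 2 arrays, a number that limits the precision, and leave out the control's own spread. The fit was tested on simulated data. Tables and promoter searches used Python 3.11.15, pandas 2.3.3 and NumPy 2.4.6, and figures Matplotlib 3.10.9.

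The members and lists were chosen with earlier results of these data known. Named genes are all members, CDX2, up to 4 genes per list past the threshold with the largest smaller ratio of the 2 arrays, and the 5 genes nearest to CYP26B1. RXRA, RXRB, AOX1, ABCB11 and ADORA3 fall outside this rule and were named after their values were seen. The lists cover retinoid uptake, storage and transport, retinol and retinal oxidoreductases, RXR and related receptors, RAR corepressors and coactivators, and genes induced by retinoic acid in other cells. Alternatives covered centring, quantile normalization, the variance prior, the feature rule, exact zeros, the log base, a fold of 1.2 in limma's treat and each array alone.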

Additional observations from a re-analysis of the deposited data

How the results depend on the processing

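The gene-level log2 ratios of the 8 measured genes kept their sign under every alternative run, apart from RARB. RARB stood at 0.19 with siRNA 6 alone and -1.49 with siRNA 8 alone. The variance prior, the fold of 1.2, the log2 reading and the kept zeros could not change a sign of these genes. No alternative took the higher RARA feature alone, which stood at 0.18 with siRNA 6 and 0.18 with siRNA 8. Calls changed most with exact zeros kept as ratios of 0, where limma called 0 of 18334 genes (5218 at an unadjusted p under 0.05), 0 of the 7 members other than CYP26B1 (4 unadjusted) and 0 of 107 pathway list genes (41 unadjusted), in place of 5225, 6 and 44. Against a fold of 1.2 limma called 3 of the 7 members, leaving ALDH1A1, ALDH1A2 and RARG. Apart from the setting that keeps zeros, the limma adjusted p of ALDH1A1, ALDH1A2 and RARG stayed between 0.00303 and 0.015 over 6 alternatives. That of RARA ran from 0.0043 to 0.0656 and that of CRABP2 from 0.0183 to 0.228. The log2 reading is among these alternatives and could not change a limma p-value. With the median feature, which of a pair is the lower one, RARA stood at -1.26 and RARG at -2.09. Pathway list calls split 18 higher and 26 lower as deposited, and 24 higher and 19 lower with arrays centred. Genes at least 1.5-fold the same way on both arrays numbered 3368, against 3966 to 4259 on 1 array alone and 586 with the deposited values read as log2, a reading that shrinks every ratio and leaves the limma calls as they were. With 1 array left there is no residual degree of freedom and no test. Each ratio already sets CDX2 siRNA RNA against control RNA on the same array, and no further pairing was possible with 1 group of ratios. The table holds no signal over background, so dim features could not be left out.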
